A study of Mus musculus with 15 samples.

Results

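The genes for the subunits of the proteasome were examined in mouse liver across 5 diets. Members were all genes whose symbol on the array consists of Psm, a letter from a to g and then a digit, which gave 49 of the 18193 genes measured. They comprised 19 genes of the core particle (8 Psma and 11 Psmb), 23 of the regulatory particles (6 Psmc, 14 Psmd and 3 Psme), and 5 for the inhibitor Psmf1 and the assembly factors Psmg1 to Psmg4. The remaining 2, Psmc3ip and Psme3ip1, match the symbol but are named as interaction partners and are no subunits, so they are given apart.

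Hepatic RNA was hybridised to Affymetrix Mouse Genome 430 2.0 arrays, 1 array per mouse, for 15 male C57BL/6J mice in 5 groups of 3. The HFCC, HFDC and HFGC groups ate a high-fat diet with 2% caffeinated, decaffeinated or green unroasted coffee powder, the HF group the same high-fat diet without coffee, and the ND group a normal diet. Fat supplied 60% of the energy in the high-fat diet and 10% in the normal diet. All mice entered at 7 weeks of age and stayed on their diet over 9 weeks. The comparisons asked how the high-fat diet changed hepatic expression (HF against ND), how each coffee and the mean of the coffees changed it under that diet (against HF), and whether the coffees differed from one another. Values are log2 of the deposited intensity, so a difference of 1 is a 2-fold change, and the level of one gene cannot be set against that of another.

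The proteasome degrades proteins that carry ubiquitin chains. Its core particle is a stack of alpha rings (Psma) and beta rings (Psmb), and the beta subunits Psmb5, Psmb6 and Psmb7 carry the proteolytic sites. Interferon induces Psmb8, Psmb9 and Psmb10, which replace them in newly built particles, the immunoproteasome, and the activator subunits Psme1 and Psme2. The regulatory particle that recognises ubiquitin consists of a base, with the ATPases Psmc1 to Psmc6 that unfold the substrate, and a lid of Psmd subunits that removes the ubiquitin chain. Dedicated chaperones assemble the base (Psmd5, Psmd9, Psmd10) and the core (Psmg1 to Psmg4).

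The HF arrays stood apart in a measure of RNA quality, log2 of the 3' minus log2 of the 5' control probe sets for Gapdh and Actb, which is larger where RNA is shorter. It lay between 1.08 and 1.40 on the HF arrays, against 0.83 to 0.95 on the ND arrays, and between 0.70 and 1.07 on the 9 coffee arrays. HF replicate 2 had the highest value and HF replicate 1 the lowest of its group. Every comparison with the HF group below therefore moves together with this measure, and all of them use the same 3 HF arrays. The hepatocyte markers were bright on all arrays, with a list mean between 13.7 and 14.1, and 0 of 5 were called in HF against ND.

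Most proteasome genes varied little. Over the 49 members the median SD between arrays of a group was 0.094, beside 0.114 over all genes, and the median range of the 5 group means was 0.20, beside 0.21 over all genes. The narrowest range belonged to Psmb5, a constitutive catalytic subunit, with 0.074. The widest belonged to Psmd9, a chaperone of the base, with 0.60, followed by Psmb10 with 0.55 and Psmb8 with 0.51, which are catalytic subunits of the immunoproteasome. The highest of the 5 group means was that of the HF group for 19 members and that of the ND group for 15, and the lowest was that of the HFCC group for 16 and that of the HF group for 13.

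**Figure D1:**
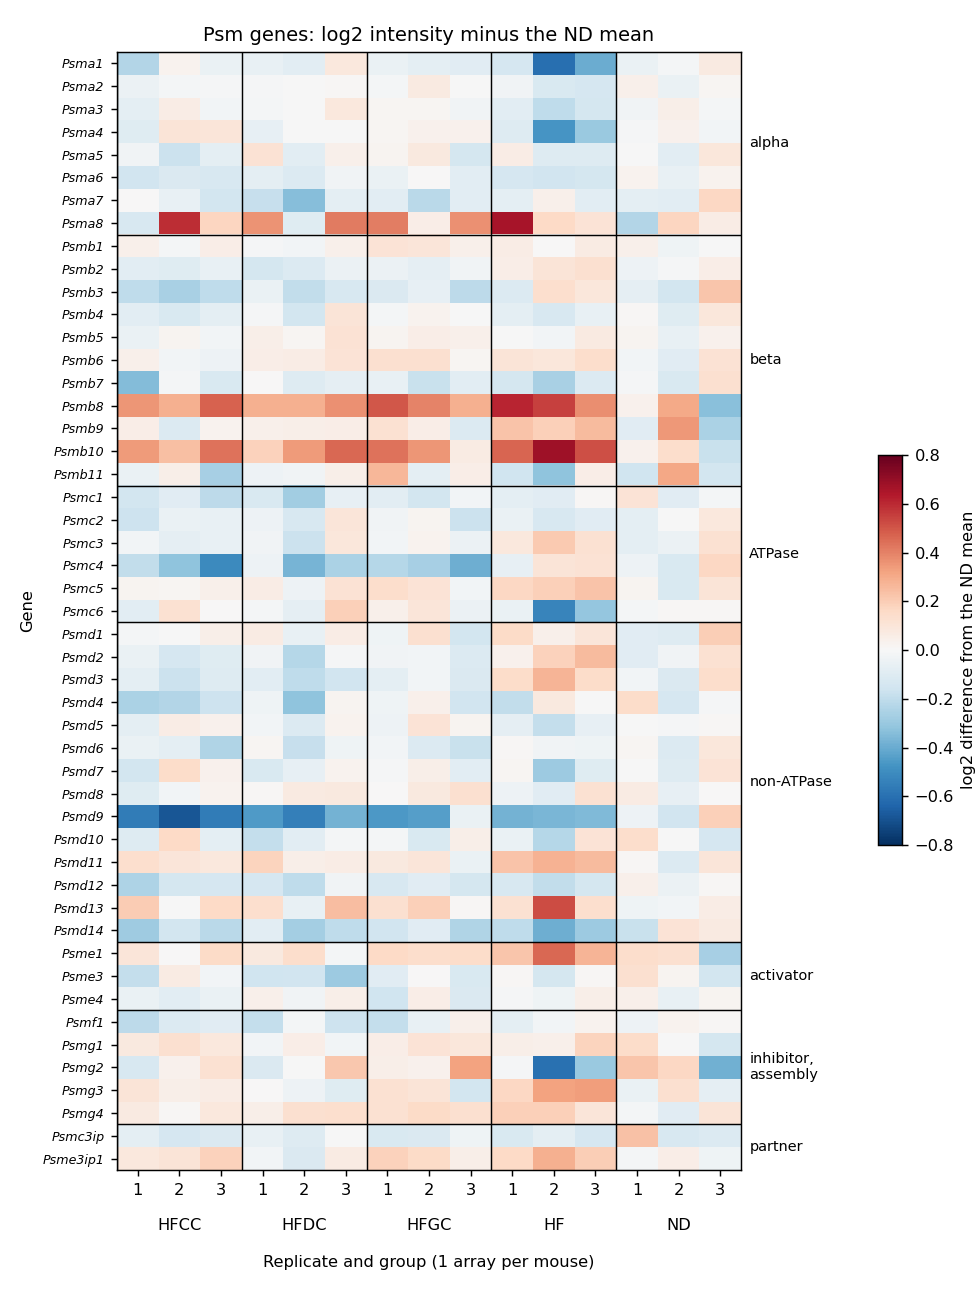
Each of 49 Psm genes (rows, by class) on each of 15 arrays (columns, by group and replicate), coloured by its log2 intensity minus the mean of the 3 ND arrays, with red above and blue below that mean. Psmb8 and Psmb10 are above the ND mean on all high-fat arrays, Psmb10 only slightly on HFGC replicate 3, Psmd9 is blue on 11 of the 12 and nearly white on HFGC replicate 3, and Psma1, Psma4 and Psmc6 are darkest blue on HF replicate 2.

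In HF livers against ND livers, 9 of the 49 proteasome genes were called at an adjusted p under 0.05. The 5 higher ones were the immunoproteasome subunits Psmb8 and Psmb10, the activator subunit Psme1, the lid subunit Psmd11 and the core assembly factor Psmg3, where 8.92% of all genes were higher. The 4 lower ones were the alpha subunits Psma1 and Psma4, the lid deubiquitinase Psmd14 and the base chaperone Psmd9, where 4.63% of all genes were lower. The core held 2 higher and 2 lower of 19 genes, and the regulatory group also held 2 higher and 2 lower of 23. The median log2 difference of the members was -0.02, beside 0.00 over all genes, and 20 of the 49 lay within 0.1 of 0. These shares are of the same order as those of all genes, so the counts say nothing particular about the family, and its members moved in both directions. The arrays of the groups did not overlap for 9 members that were higher and 9 that were lower, where this held for 15.7% and 10.8% of all genes.

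All of these calls except that of Psmb10 were lost in at least 1 fit that left out a single array. Without ND replicate 1, 2 or 3 the members called were 3 higher and 2 lower, 5 and 1, and 4 and 0. Without HF replicate 2 only Psmb10 remained called, without HF replicate 3 only Psmb10 and Psmb8, and without HF replicate 1 the count was 10. Fitted with the HF and ND arrays alone, only Psmb10 was called, and with the 3' minus 5' measure as a covariate 0 members and 14 of all genes were called. Scaling mattered for the split, since cyclic loess normalization between arrays gave 2 higher and 6 lower members in place of 5 and 4, and 53.3% of all called genes were higher in place of 65.8%.

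Psmb10, the induced form of the subunit with trypsin-like activity, showed the largest rise. Its log2 intensity was 9.35, 9.57 and 9.40 on the HF arrays, against 8.92, 9.03 and 8.71 on the ND arrays. All HF arrays lay above all ND arrays. The difference was 0.55 (standard error 0.11, adjusted p = 0.0067), a 1.47-fold increase. The call held in each of the 15 fits that left out 1 array and was lost with the RNA quality covariate, where the difference was 0.48 and the adjusted p 0.19.

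Psmb8, the induced form of the subunit with chymotrypsin-like activity, had 9.10, 9.04 and 8.86 on the HF arrays, against 8.53, 8.80 and 8.16 on the ND arrays. The groups did not overlap, although the highest ND array came within 0.1 of the lowest HF array. The difference was 0.51 (standard error 0.12, adjusted p = 0.016). It was 0.49 with an adjusted p of 0.06 without HF replicate 2, 0.34 with an adjusted p of 0.048 without ND replicate 3, and 0.57 with an adjusted p of 0.18 with the covariate. A second probe set of Psmb8, ending in _x_at, was higher as well, by 0.38 (adjusted p = 0.020 over all probe sets). It was dim on every array, with values from 4.15 to 4.83, so it is no firm second measure of the rise.

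Psmb9, the induced form of the subunit with caspase-like activity, did not pass the test. It had 8.55, 8.51 and 8.57 on the HF arrays, against 8.23, 8.67 and 8.06 on the ND arrays, so the HF arrays agreed closely while ND replicate 2 lay above all of them. The difference was 0.23 (standard error 0.12, adjusted p = 0.22), and 0.40 with an adjusted p of 0.012 without ND replicate 2.

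None of the constitutive counterparts was called. The HF minus ND difference was 0.02 for Psmb5 (95% interval -0.11 to 0.14), 0.11 for Psmb6 (-0.03 to 0.25) and -0.17 for Psmb7 (-0.36 to 0.02). Psmb5 had 10.94, 10.92 and 11.02 on the HF arrays, against 10.97, 10.89 and 10.98 on the ND arrays, and the arrays of both groups were interleaved. Whether the induced and constitutive subunits differed in their response was not tested.

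**Figure D2:**
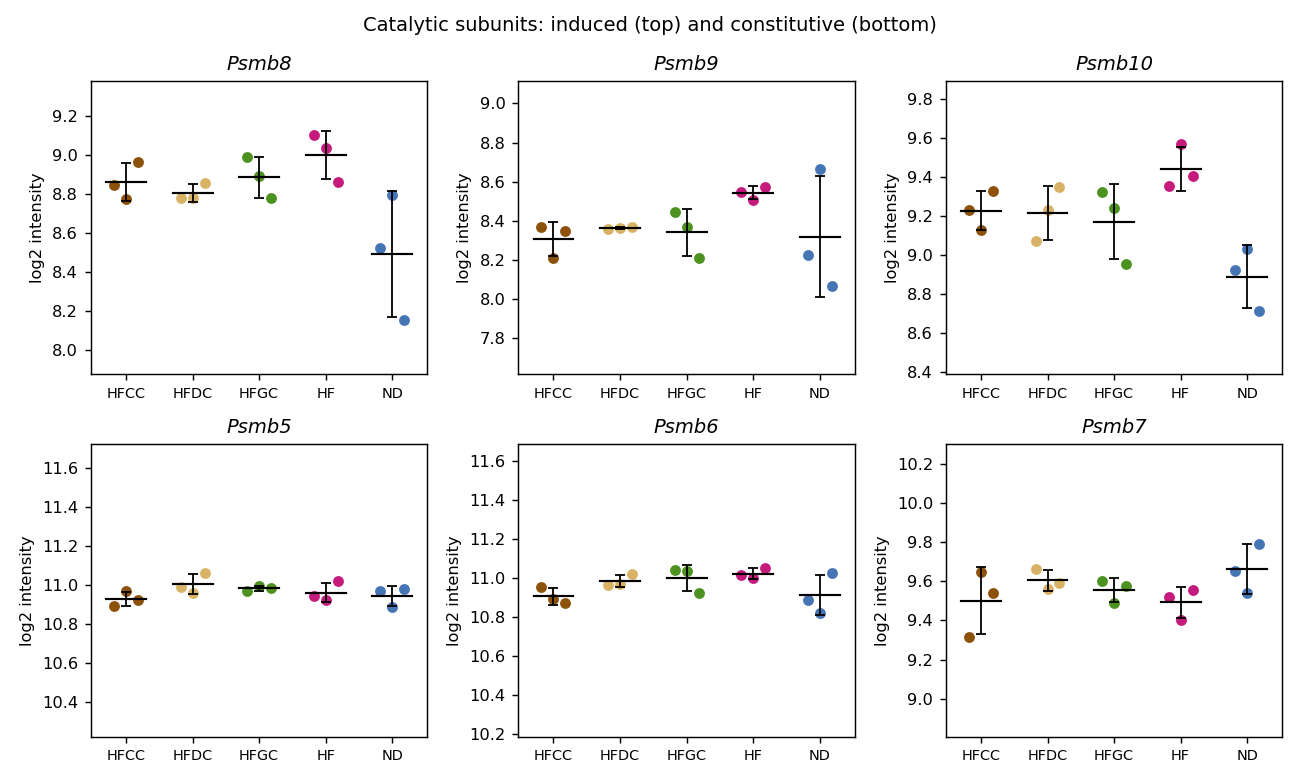
Log2 intensity of the induced catalytic subunits (top) and the constitutive ones (bottom) on all 15 arrays, sorted by diet, where lines give group means and bars the SD (n = 3), all panels spanning the same range of log2 units. Psmb8 and Psmb10 are higher on all HF arrays than on all ND arrays, while the HF and ND points of Psmb5, Psmb6 and Psmb7 overlap.

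The activator genes gave a mixed picture. Psme1 had 10.60, 10.83 and 10.65 on the HF arrays, against 10.51, 10.50 and 10.11 on the ND arrays. The groups did not overlap, and ND replicate 3 was low. The difference was 0.32 (standard error 0.099, adjusted p = 0.045). That call was lost in 12 of the 15 fits that left out 1 array, among them those without ND replicate 3 (difference 0.19, adjusted p = 0.16), HF replicate 2 (0.25, adjusted p = 0.18) and HF replicate 3 (0.34, adjusted p = 0.088), and those without any 1 of the 9 coffee arrays (0.32, adjusted p between 0.051 and 0.057), and under cyclic loess (0.28, adjusted p = 0.064). Psme2, its partner in the activator ring, is measured only by a probe set shared with the near-identical Psme2b, with 10.45, 10.49 and 10.40 on the HF arrays, against 10.35, 10.41 and 10.12 on the ND arrays. That probe set overlapped between the groups and was not called (difference 0.16, adjusted p = 0.21 over all probe sets). Psme3 and Psme4, the other activators, differed by -0.04 and 0.00 in the gene fit.

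Markers of other cell types were measured beside the interferon-inducible genes, because leukocytes carry the immunoproteasome constitutively. In HF against ND, 1 of 3 general leukocyte markers was called, Coro1a, an actin-binding protein of leukocytes, which was higher by 0.74 (adjusted p = 0.0061). Of the others, Laptm5 differed by 0.42 (adjusted p = 0.056) and Ptprc, the most general of them, by -0.14 (adjusted p = 0.72). The mean of the 3 markers lay between 7.46 and 7.53 on the HF arrays, against 7.00 to 7.23 on the ND arrays. The 8 macrophage, 5 T cell and 3 B cell markers gave 0 calls, at list means of 9.14 to 9.24, 6.01 to 6.10 and 5.28 to 5.42 on the HF arrays, against 8.60 to 9.37, 5.85 to 6.08 and 5.13 to 5.37 on the ND arrays. Of 4 endothelial and 4 stellate markers, Stab2 and Col3a1 were higher, by 0.49 and 0.70, at list means of 8.26 to 8.32 and 7.08 to 7.12 on the HF arrays, against 7.96 to 8.23 and 6.77 to 6.92 on the ND arrays. The part of these cells in the rise of Psmb8, Psmb10 and Psme1 was not tested, and in whole liver a change in the number of cells of a type and a change in RNA per cell cannot be told apart.

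The stretches before the RefSeq start of the 3 induced catalytic genes are shown because interferon acts on such genes through short promoter elements. RefSeq promoter sequences (GRCm38.p6) matched 41 of the 49 members, without Psma8, Psmb1, Psmb2, Psmb7, Psmc3, Psmd3, Psmd7 and Psmg2. Capitals mark matches, on either strand, to the interferon elements ISRE-like (GAAA, any 2 bases, GAAA) and GAS-like (TTCNNNGAA) within the 170 bases before the start, for Psmb8 at chr17:34198025-34198194 (+), Psmb9 at chr17:34187331-34187500 (-) and Psmb10 at chr8:105938393-105938562 (-).
Psmb8: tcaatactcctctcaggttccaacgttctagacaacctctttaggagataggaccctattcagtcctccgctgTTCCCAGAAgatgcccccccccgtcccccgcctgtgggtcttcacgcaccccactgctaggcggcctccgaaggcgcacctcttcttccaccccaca
Psmb9: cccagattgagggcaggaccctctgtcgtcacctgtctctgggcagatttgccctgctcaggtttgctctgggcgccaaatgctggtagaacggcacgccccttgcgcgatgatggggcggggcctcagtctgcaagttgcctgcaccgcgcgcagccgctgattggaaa
Psmb10: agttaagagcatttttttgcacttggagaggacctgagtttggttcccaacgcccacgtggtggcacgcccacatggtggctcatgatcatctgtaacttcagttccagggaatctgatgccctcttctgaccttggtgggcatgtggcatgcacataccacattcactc

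Psmb8 held 1 GAS-like match, 89 to 97 bases before the start, and neither element occurred in the windows of Psmb9 and Psmb10. Whether the RefSeq start used for Psmb10 is the main one in liver could not be checked, so its window may not be the one in use. In the 250 bases before the start, the GAS-like letters, which read the same on both strands, were found for 2 of the 41 members, Psmb8 and Psmg1, in 7.02% of 32851 promoters and for 8.13% of the 27025 genes these belong to. The ISRE-like letters were found for Psmb3, Psmd4 and Psmd9, in 2.98% of promoters and for 3.46% of genes. A match describes these letters only.

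On the probe sets in use, all 7 alpha ring genes expressed in liver had a lower mean in HF livers than in ND livers. Their log2 differences were -0.38 to -0.04, where 49.71% of all genes lay above 0, and 2 were called. Psma1 had 11.00, 10.53 and 10.74 on the HF arrays, against 11.08, 11.12 and 11.21 on the ND arrays. The groups did not overlap, HF replicate 2 was lowest and HF replicate 1 lay just under ND. Psma1 fell by 0.38 (standard error 0.10, adjusted p = 0.025).

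Psma4 had 11.11, 10.75 and 10.92 on the HF arrays, against 11.21, 11.25 and 11.20 on the ND arrays, with the same order of the HF arrays. It fell by 0.29 (standard error 0.084, adjusted p = 0.033). The covariate for RNA quality left -0.14 for Psma1 (adjusted p = 0.64) and -0.06 for Psma4 (adjusted p = 0.81). Without HF replicate 2 the differences were -0.27 (adjusted p = 0.12) and -0.20 (adjusted p = 0.15), and without HF replicate 3 they were -0.37 (adjusted p = 0.077) and -0.29 (adjusted p = 0.091). The calls were lost without single ND arrays too, for Psma1 without replicate 2 (adjusted p = 0.0504) or 3 (adjusted p = 0.076) and for Psma4 without replicate 1, 2 or 3 (adjusted p = 0.064, 0.083 and 0.06). The mean over the probe sets of Psma1 differed by -0.11 (adjusted p = 0.54). Its other probe sets, which count alike in that mean, were dim (5.01 to 7.03). The other 5 alpha ring genes, Psma2, Psma3, Psma5, Psma6 and Psma7, lay between -0.14 and -0.04 with adjusted p of 0.12 or more. All 7 stayed below 0 under cyclic loess, with an offset of 32 added to the intensities and with the covariate, but Psma7 lay above 0 without ND replicate 3 (0.04) and Psma3 with averaged probe sets (0.01). Other probe sets of these genes went in both directions. One of Psma6 had 11.71, 11.82 and 11.71 on the HF arrays, against 11.66, 11.67 and 11.79 on the ND arrays. One of Psma5 had 10.47, 10.39 and 10.39 on the HF arrays, against 10.46, 10.47 and 10.53 on the ND arrays. The 4 other beta ring genes, Psmb1 to Psmb4, lay between -0.09 and 0.10 and gave no call. Psma8 and Psmb11, forms known from the germ line and the thymus, were dim throughout (4.42 to 5.43) and were not called, with differences of 0.31 and -0.14.

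In the regulatory particle, Psmd11, a lid subunit, was higher. It had 11.75, 11.81 and 11.78 on the HF arrays, against 11.54, 11.42 and 11.62 on the ND arrays, and the groups did not overlap. The difference was 0.25 (standard error 0.070, adjusted p = 0.028). The mean of its 8 probe sets, in which dim ones count alike, gave 0.04 (adjusted p = 0.62). Of these, 3 were called in opposite directions (0.25, 0.36 and, on the dimmest at 3.27 to 4.06, -0.46). The Psmd11 call was also lost under cyclic loess (0.23, adjusted p = 0.0502). Fits that left out ND replicate 1 or 2 or HF replicate 2 or 3 gave 0.26, 0.20, 0.24 and 0.25 (adjusted p = 0.053, 0.10, 0.091 and 0.077).

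Psmd14, the deubiquitinase that cuts the chain from the substrate, had 10.56, 10.37 and 10.48 on the HF arrays, against 10.59, 10.87 and 10.84 on the ND arrays. The HF arrays lay below all ND arrays, by little in the case of ND replicate 1. Psmd14 fell by 0.29 (standard error 0.086, adjusted p = 0.036) and lost its call when ND replicate 2, ND replicate 3, HF replicate 2 or HF replicate 3 was left out, at differences of -0.24 to -0.30 and adjusted p of 0.091 to 0.14, and with a replicate block (adjusted p = 0.053). The remaining 6 lid genes lay between -0.16 (Psmd12) and 0.26 (Psmd13) and gave no call. None of the 6 ATPase genes was called. Psmc6 was nearest among them, with 10.44, 9.97 and 10.18 on the HF arrays, against 10.48, 10.50 and 10.50 on the ND arrays (difference -0.30, adjusted p = 0.071). The base scaffold and ubiquitin receptor genes Psmd1, Psmd2 and Psmd4 lay between -0.04 and 0.16, without a call.

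Among the assembly factors, Psmg3 was higher, with 9.01, 9.17 and 9.19 on the HF arrays, against 8.80, 8.98 and 8.78 on the ND arrays. ND replicate 2 lay just below the lowest HF array. The difference was 0.27 (standard error 0.083, adjusted p = 0.042), and the call was lost in 10 of the 15 fits without 1 array. Of these fits, those lacking ND replicate 1, ND replicate 3, HF replicate 2 or HF replicate 3 gave 0.24 to 0.25 (adjusted p of 0.11 to 0.14), and the ones without any 1 of the HFCC or HFDC arrays gave 0.27 (adjusted p of 0.0504 to 0.0549). Cyclic loess (0.21, adjusted p = 0.10) and the mean of its probe sets (0.24, adjusted p = 0.064) ended the call as well. Psmg1, Psmg2 and Psmg4 were not called, with differences of 0.09, -0.30 and 0.16, and Psmf1, an inhibitor of the core, differed by -0.02. The sign turned with the covariate for Psmg2 (0.25) and Psmf1 (0.07). The partners Psmc3ip and Psme3ip1 differed by -0.11 and 0.21 (adjusted p = 0.41 and 0.051).

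**Figure D3:**
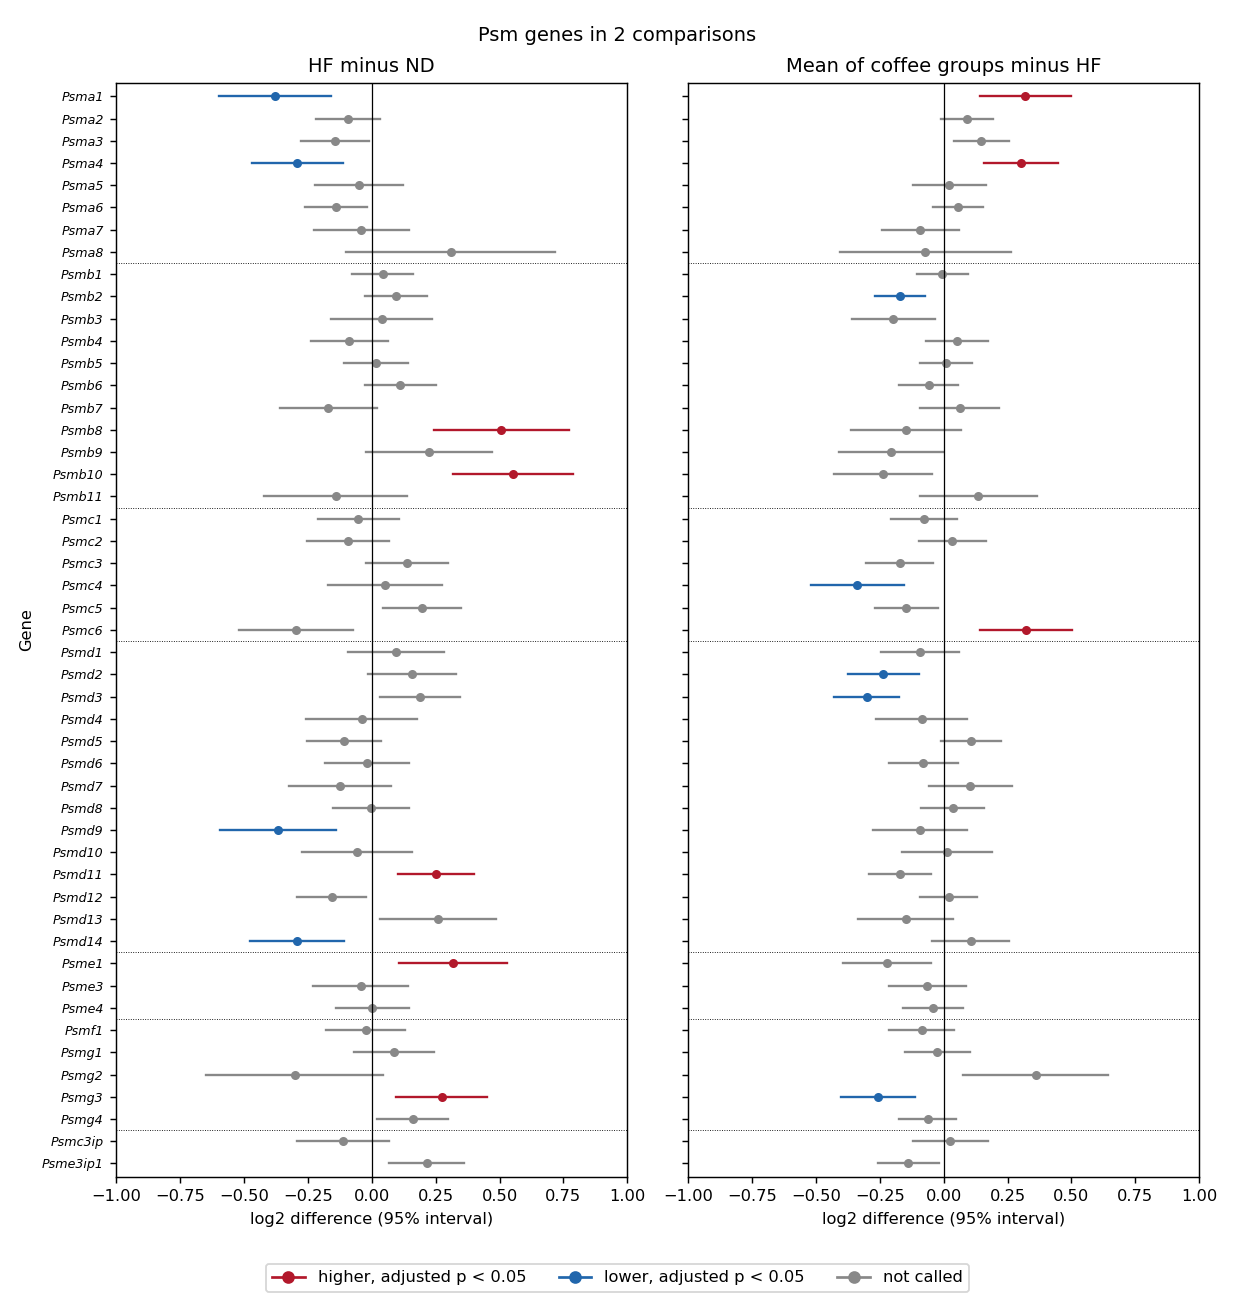
Log2 difference with its 95% interval for each of 49 Psm genes, HF minus ND (left) and the mean of the coffee groups minus HF (right), with dotted lines between classes. In HF against ND 5 genes are called higher (red) and 4 lower (blue), and in the coffee groups against HF 3 are called higher and 5 lower. Both panels use the same 3 HF arrays.

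Psmd9 had its highest group mean in the ND group and lay lower in every high-fat group. This chaperone helps to assemble the ATPase ring and leaves the finished particle. It had 8.86, 8.73 and 8.86 on the HFCC arrays, 8.96, 8.87 and 9.04 on the HFDC arrays, 8.96, 8.97 and 9.37 on the HFGC arrays and 9.04, 9.05 and 9.06 on the HF arrays, against 9.38, 9.27 and 9.61 on the ND arrays. Of the 12 high-fat arrays, 11 lay below all ND arrays, and HFGC replicate 3 lay inside the ND range. In the HF group it was lower than in the ND group by 0.37 (difference -0.37, standard error 0.11, adjusted p = 0.034).

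A comparison of the mean of the coffee groups with ND, which leaves out the HF arrays, was added after the data were seen. It called 1 of the 49 members, Psmd9, lower (difference -0.46, standard error 0.087, adjusted p = 0.011), and 0 higher, where 1.73% of all genes were lower and 2.36% higher. At an unadjusted p under 0.05 there were 6 members. With the covariate the count was 2 and the difference of Psmd9 was -0.46 (adjusted p = 0.014). Psmb8 and Psmb10 had differences of 0.36 (adjusted p = 0.061) and 0.32 (adjusted p = 0.062) from ND, and Psmc4 one of -0.29 (adjusted p = 0.077).

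The Psmd9 results come from 1 probe set. Its 2 other probe sets, which were dimmer, differed by 0.04 and 0.23 in HF against ND and were not called, and the mean over its probe sets differed by -0.03 (adjusted p = 0.84) in HF against ND and by -0.16 (adjusted p = 0.18) in the coffee groups against ND. Without ND replicate 3, which had the highest value, the difference of the coffee groups from ND was -0.36 (adjusted p = 0.057). The HF against ND call was lost without ND replicate 1 (-0.39, adjusted p = 0.057), ND replicate 3 (-0.27, adjusted p = 0.13) or any single HF array (-0.37 to -0.36, adjusted p of 0.06 to 0.091).

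The 170 bases before the RefSeq start of Psmd9 are shown because they hold 2 of the searched elements, in capitals, the ISRE-like one and further on TGACNNNGC, the core of the antioxidant response element through which Nfe2l1 (Nrf1) drives proteasome genes (chr5:123228020-123228189, +, GRCm38.p6).
Psmd9: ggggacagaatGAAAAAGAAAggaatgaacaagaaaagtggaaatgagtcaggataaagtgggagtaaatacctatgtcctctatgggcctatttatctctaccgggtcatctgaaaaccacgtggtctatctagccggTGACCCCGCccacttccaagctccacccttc

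The antioxidant core was found in the 250 bases before the start of 5 of the 41 members, Psmb5, Psmb6, Psmc6, Psmd9 and Psmd12, in 10.2% of all promoters and for 11.5% of genes. The CCAAT box (CCAAT), a common promoter element, was found for 16 of the 41 members (39%), in 33.8% of all promoters and for 37.5% of genes. Of the 5 members with a match to the antioxidant core, Psmc6 and Psmd9 were called in the main fit, and Psmb5, Psmb6 and Psmd12 were not. Psmd12 was called lower in HF against ND under cyclic loess (-0.19, adjusted p = 0.0491) and with the offset (-0.15, adjusted p = 0.0445). Whether a match goes with a call was not tested.

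The mean of the coffee groups differed from HF in 8 of the 49 proteasome genes. Psma1, Psma4 and the ATPase gene Psmc6 were higher, where 3.39% of all genes were, and Psmb2, Psmc4, Psmd2, Psmd3 and Psmg3 were lower, where 6.88% of all genes were. The core held 2 higher and 1 lower of 19 genes, and the regulatory group 1 higher and 3 lower of 23. The median difference of the members was -0.06, beside 0.01 over all genes, and again the shares are of the same order as those of all genes. The 9 coffee arrays lay above all HF arrays for 2 members and below them for 9, where this held for 1.97% and 6.34% of all genes.

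All 8 calls were lost without HF replicate 2 and without HF replicate 3, where 0 members were called at adjusted p from 0.052 to 0.23. With the covariate the count was 0 as well. Under cyclic loess the split was 4 higher and 2 lower in place of 3 and 5, and 53% of all called genes were higher in place of 33%.

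Psmd3, a structural subunit of the lid, had the smallest adjusted p of the members in this comparison. It had 9.35, 9.25 and 9.32 on the HFCC arrays, 9.34, 9.23 and 9.27 on the HFDC arrays and 9.35, 9.41 and 9.31 on the HFGC arrays, against 9.58, 9.70 and 9.57 on the HF arrays and 9.41, 9.31 and 9.57 on the ND arrays. All 9 coffee arrays lay below all HF arrays, while ND replicate 2 lay within the coffee range and ND replicate 3 close to the lowest HF array. Psmd3 was lower in the coffee groups than in HF by 0.30 (difference -0.30, standard error 0.060, adjusted p = 0.011). By coffee, the difference was -0.31 in HFCC (adjusted p = 0.0498), -0.34 in HFDC (adjusted p = 0.027) and -0.26 in HFGC (adjusted p = 0.064). In HF against ND it was 0.19 (adjusted p = 0.10).

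Psma4 was higher on all 9 coffee arrays than on the HF arrays. It had 11.12, 11.32 and 11.31 on the HFCC arrays, 11.15, 11.21 and 11.21 on the HFDC arrays and 11.24, 11.25 and 11.25 on the HFGC arrays, against 11.11, 10.75 and 10.92 on the HF arrays. HF replicate 1 lay only just below the lowest coffee array. The difference was 0.30 (standard error 0.068, adjusted p = 0.016), and 0.21 without HF replicate 2 (adjusted p = 0.14).

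Psma1 had 10.90, 11.16 and 11.08 on the HFCC arrays, 11.07, 11.05 and 11.22 on the HFDC arrays and 11.08, 11.06 and 11.04 on the HFGC arrays, against 11.00, 10.53 and 10.74 on the HF arrays, and overlapped with HF replicate 1. The difference was 0.32 (standard error 0.083, adjusted p = 0.027). Psmc6, an ATPase of the base, had 10.41, 10.62 and 10.49 on the HFCC arrays, 10.48, 10.42 and 10.69 on the HFDC arrays and 10.53, 10.59 and 10.45 on the HFGC arrays, against 10.44, 9.97 and 10.18 on the HF arrays, also overlapping with HF replicate 1. Its difference was 0.32 (standard error 0.085, adjusted p = 0.028). For both genes HF replicate 2 was the lowest of all 15 arrays, and without it the differences were 0.21 (adjusted p = 0.22 and 0.23). The mean over their probe sets was not called either, at 0.19 for Psma1 (adjusted p = 0.18) and 0.32 for Psmc6 (adjusted p = 0.054).

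Psmc4, another ATPase of the base, went the other way. It had 11.08, 10.95 and 10.76 on the HFCC arrays, 11.23, 10.90 and 11.02 on the HFDC arrays and 11.05, 11.01 and 10.88 on the HFGC arrays, against 11.20, 11.38 and 11.39 on the HF arrays and 11.23, 11.15 and 11.44 on the ND arrays. Only HFDC replicate 1 reached the HF range. The difference from HF was -0.34 (standard error 0.085, adjusted p = 0.024), while HF and ND differed by 0.05 (adjusted p = 0.79). With the covariate these differences were -0.05 and -0.25.

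Psmg3, a factor in the assembly of the alpha ring, had 8.95, 8.90 and 8.91 on the HFCC arrays, 8.85, 8.81 and 8.75 on the HFDC arrays and 8.97, 8.96 and 8.70 on the HFGC arrays, below 9.01, 9.17 and 9.19 on the HF arrays. The difference was -0.26 (standard error 0.068, adjusted p = 0.028). Psmd2, a scaffold of the base, was lower than on all HF arrays too, with 10.51 to 10.72 on the coffee arrays, against 10.77 to 10.98 on the HF arrays. Its difference was -0.24 (standard error 0.065, adjusted p = 0.035). Psmb2, a beta ring subunit without a proteolytic site, had 10.25 to 10.37 on the coffee arrays, against 10.45 to 10.52 on the HF arrays, a difference of -0.17 (standard error 0.047, adjusted p = 0.033). The calls of Psmd2 and Psmb2 were also lost without some single coffee arrays, namely HFCC replicate 2 or 3, HFDC replicate 2 or HFGC replicate 3 for Psmd2 and HFCC replicate 2 or 3 or HFDC replicate 1 or 2 for Psmb2 (adjusted p between 0.051 and 0.056), and under cyclic loess (0.090 and 0.12). Averaged probe sets ended the calls of Psmd2 (-0.14, adjusted p = 0.13) and Psmg3 (-0.14, adjusted p = 0.21), and cyclic loess that of Psmg3 (-0.20, adjusted p = 0.078).

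**Figure D4:**
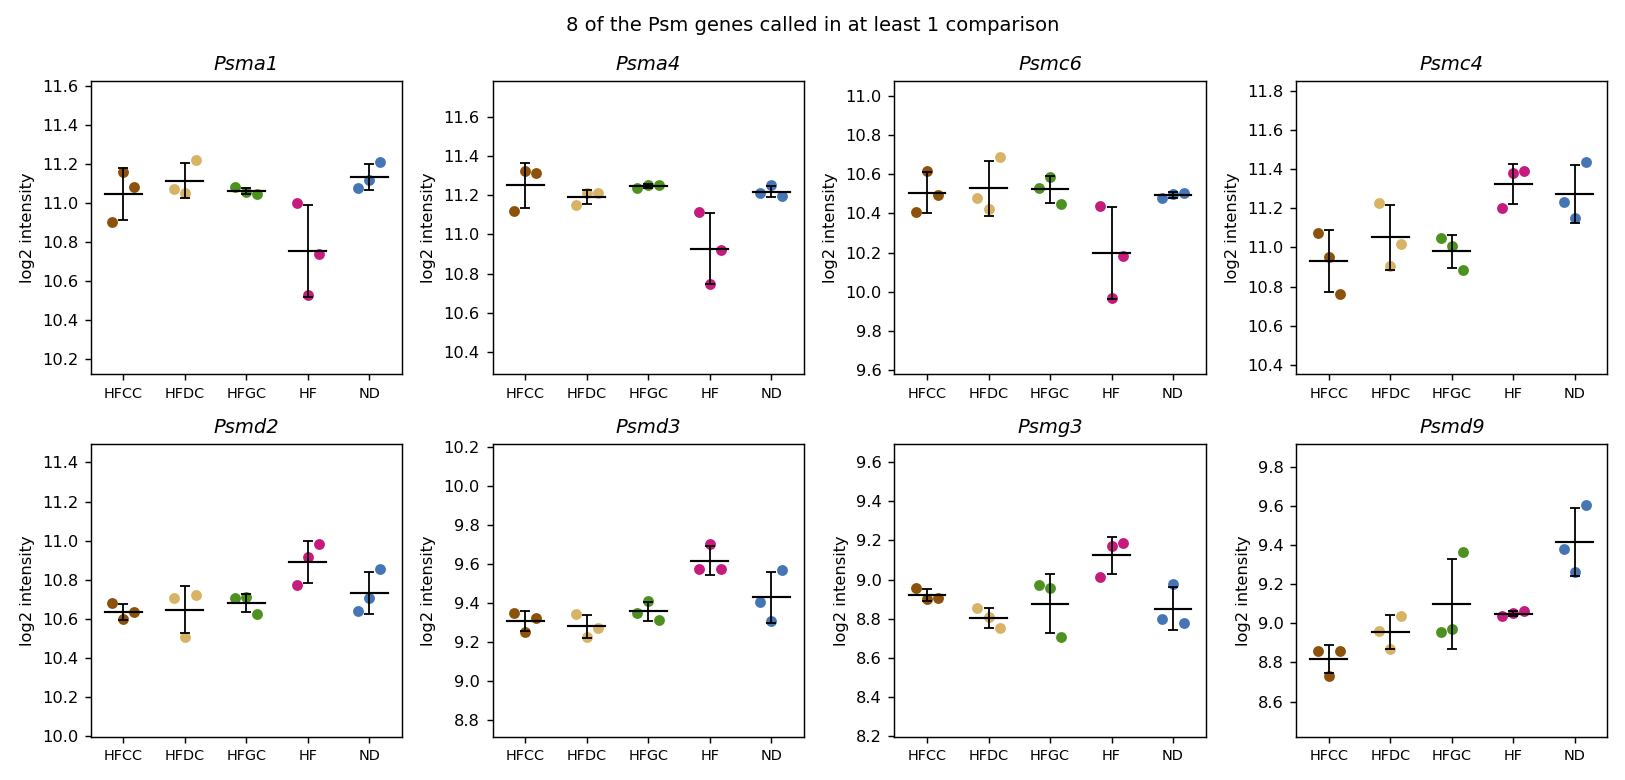
Log2 intensity of 8 of the called Psm genes on all 15 arrays, sorted by diet, where lines give group means and bars the SD (n = 3), all panels spanning the same range of log2 units. Psma1, Psma4 and Psmc6 have a low HF replicate 2 (10.53, 10.75 and 9.97), Psmd3 and Psmg3 are lower on all coffee arrays than on all HF arrays, and Psmd9 has its highest group mean in ND, with HFGC replicate 3 inside the ND range.

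The immunoproteasome genes did not pass the test in the coffee groups against HF, although Psmb9 and Psme1 did so in 2 of 23 alternative fits each, with the compared groups alone (adjusted p = 0.041 and 0.037) and without 1 ND array (replicate 2 for Psmb9, adjusted p = 0.0486, and replicate 3 for Psme1, 0.032). Psmb10 had 9.23, 9.13 and 9.33 on the HFCC arrays, 9.07, 9.23 and 9.35 on the HFDC arrays and 9.32, 9.24 and 8.95 on the HFGC arrays, all below the lowest HF array, HFDC replicate 3 only just, with a difference from HF of -0.24 (95% interval -0.43 to -0.05, adjusted p = 0.11). Psmb9 differed by -0.21 (-0.41 to -0.0046, adjusted p = 0.19) and Psmb8 by -0.15 (-0.36 to 0.07, adjusted p = 0.40). Psme1 differed by -0.22 (adjusted p = 0.098). Beside them, Coro1a differed by -0.32 (adjusted p = 0.095), and the mean of the 3 leukocyte markers lay between 7.12 and 7.76 on the coffee arrays, against 7.46 to 7.53 on the HF arrays. The differences of the 3 constitutive catalytic genes lay between -0.06 and 0.06, with adjusted p of 0.55 or more.

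Taken singly, the coffees gave few calls. In HFCC against HF, 1 of the 49 members was lower, Psmd3, where 1.26% of all genes were lower and 0.379% higher, and 13 members had an unadjusted p under 0.05. In HFDC against HF, Psmd3 and Psmg3 were lower, where 3.7% of all genes were lower and 1.31% higher, and again 13 members had an unadjusted p under 0.05. Psmg3 differed there by -0.32 (standard error 0.083, adjusted p = 0.042). The HFCC call was lost in 12 of the 15 fits without 1 array, all but those without ND replicate 2 or 3 or HF replicate 1 (adjusted p of 0.051 to 0.24). Without HF replicate 2 or 3 or any 1 of the HFDC arrays, both HFDC calls were lost, that of Psmd3 at adjusted p of 0.051 to 0.12 and that of Psmg3 at 0.074 to 0.16, and that of Psmg3 was also lost without any 1 of the HFCC arrays, at 0.053 to 0.057. In HFGC against HF, 0 members were called by limma, where 2.31% of all genes were lower and 0.781% higher, and 12 had an unadjusted p under 0.05. Psma4 came nearest in that group, with a difference of 0.32 (adjusted p = 0.052). Under cyclic loess Psmd3 and Psmg3 were called in none of these comparisons, while Psma1 (0.41, adjusted p = 0.045) and Psma4 (0.31, adjusted p = 0.0498) were higher in HFDC and Psma4 in HFGC (0.35, adjusted p = 0.042). The share of higher genes among all calls was then 49.2%, 56.6% and 49.7% in HFCC, HFDC and HFGC, in place of 23.2%, 26.2% and 25.2%. Leaving out HF replicate 1 gave 7 calls for HFCC, 8 for HFDC and 7 for HFGC, and leaving out HF replicate 2 or 3 gave 0 for each.

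No proteasome gene separated the coffees from one another. Of the 49 members, 0 were called by limma in HFDC against HFCC, in HFGC against HFCC and in HFGC against HFDC, where 0.0934%, 0% and 0.0385% of all genes were called, and 0, 1 and 1 had an unadjusted p under 0.05. The 95% interval of a member's difference reached a median of 0.17 to either side. All 49 differences between HFDC and HFCC lay between -0.15 and 0.14, those between HFGC and HFDC between -0.09 and 0.15, and those between HFGC and HFCC between -0.07 and 0.28. The last was Psmd9, with 8.96, 8.97 and 9.37 on the HFGC arrays and 8.86, 8.73 and 8.86 on the HFCC arrays (difference 0.28, 95% interval 0.06 to 0.51, adjusted p = 1), and 0.15 without HFGC replicate 3. Smaller differences than these intervals could not be resolved with 3 arrays a group.

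The pathway around the proteasome was read from lists of related genes. The shares of all genes beside them were 8.92% higher and 4.63% lower in HF against ND. In HF against ND, 0 of 8 proteasome-associated factors were called. Of 9 ubiquitin shuttle and unfolding factors, Vcp, the ATPase that extracts ubiquitinated proteins, was higher by 0.36 (adjusted p = 0.031), and Ubqln2, a shuttle, and Ufd1, a Vcp cofactor, were lower (differences -0.38 and -0.34). Of 6 genes of ubiquitin and its conjugation, Ube2d3, a ubiquitin-conjugating enzyme, was lower (difference -0.43, adjusted p = 0.027). Of 7 genes around Nfe2l1, the transcription factor that drives proteasome subunit genes, Nfe2l1 itself was higher.

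Nfe2l1 had 9.08, 8.97 and 8.87 on the HFCC arrays, 8.98, 8.91 and 8.53 on the HFDC arrays and 9.07, 8.91 and 8.67 on the HFGC arrays, against 9.10, 9.46 and 9.17 on the HF arrays and 8.78, 8.87 and 8.71 on the ND arrays. The HF arrays were the highest of all 15. The difference was 0.46 in HF against ND (standard error 0.13, adjusted p = 0.029) and -0.36 in the coffee groups against HF (standard error 0.10, adjusted p = 0.041). Its paralogs Nfe2l2 and Nfe2l3 were not called in either comparison. HF replicate 2 had the highest value of Nfe2l1, as it did for the 3' minus 5' measure. With that measure as a covariate 0 of all genes were called in the coffee groups against HF, so this call of Nfe2l1 was lost. What part the measure has in the Nfe2l1 values was not tested.

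Antigen presentation uses the peptides that the proteasome produces. Of 11 of its genes, 3 were higher in HF than in ND, where 8.92% of all genes were higher. They were the peptide transporter subunit Tap2 (0.26), its partner Tapbp (0.25) and the chaperone Calr (0.47). The groups did not overlap for Tap2 and Tapbp. Calr had 12.88, 12.96 and 12.83 on the HF arrays, against 12.16, 12.25 and 12.86 on the ND arrays, with ND replicate 3 inside the HF range. Of 13 genes of interferon signalling and response, 0 were higher and 2 were lower, Stat2 (-0.43) and Jak1 (-0.35), where 4.63% of all genes were lower. In the coffee groups against HF, 3 of the same 11 genes were lower, among them Tap1 (-0.27) and Tapbp (-0.22). The endoplasmic reticulum oxidoreductase Pdia3 was the 1 that was higher (0.67). Of all genes, 6.88% were lower and 3.39% higher there. Stat2 was higher (0.36) among the 13. The proteasome-associated deubiquitinase Usp14 was higher (0.47, adjusted p = 0.023), as was Ube2d3 (0.43), while Faf1 and Ube2r2 were lower (-0.20 and -0.22). With the 3' minus 5' covariate 0 of all genes were called in the coffee groups against HF, so all these coffee calls were lost. Without HF replicate 2, 4 of all genes were called there and 0 of them were higher, so the higher calls were lost too. In HF against ND the covariate left 14 of all genes called.

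The choice of probe set mattered for several members, since 27 of the 49 genes had more than 1 and the brightest stood for the gene. A mean over probe sets counts dim ones alike, such as those of Psmd2 (3.62 to 4.01) and Psmg3 (4.23 to 4.67). A difference seen on the brightest alone is reduced in such a mean. Tested for themselves, 15 of the 103 member probe sets were called in HF against ND, 7 higher and 8 lower, where 12% of 34946 probe sets were called. Of these, Psmc6, Psmd6 and Psme4 each had another probe set that was lower while the one that stood for the gene was not called.

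**Figure D5:**
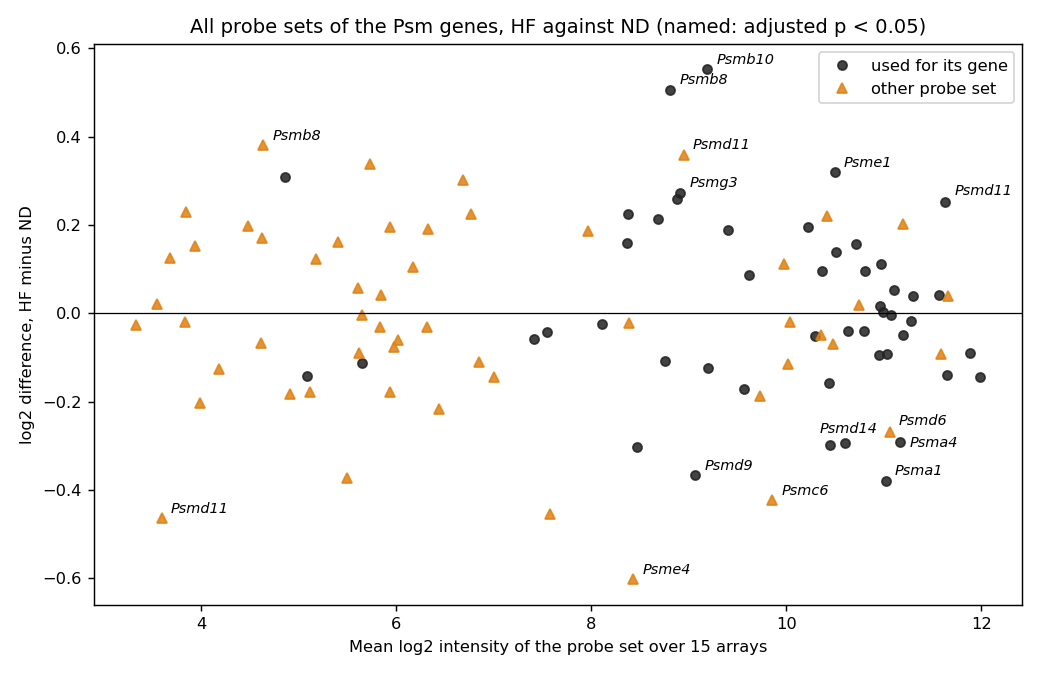
Log2 difference of HF minus ND for each of 103 probe sets of the Psm genes against its mean log2 intensity over 15 arrays. Circles are the probe sets used for their genes and triangles the others, and the 15 that pass an adjusted p of 0.05 over all probe sets are named. One of the other probe sets of Psme4 is lower (-0.60), and Psmd11 has named points on both sides of 0.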

How the data were processed

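The authors deposited linear intensity values made with RMA (robust multi-array average), a method that subtracts background, equalises the arrays by quantiles and condenses each probe set to 1 value. Which program they ran for it is not given in the sources used here. Array medians were 48.5 to 50.0, and no depth applies, so the number of arrays limits precision. The labels name 3 mice per group, which the study's methods describe as selected at random.

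Here log2 was taken with no further normalization. Of 45101 probe sets, 64 controls were left out, and 34945 carried exactly 1 gene symbol. The brightest probe set, ending in _x_at only where there was no other, stood for each of 18193 genes. All 15 arrays entered 1 limma 3.58.1 model in R 4.3.3 with 5 group means, leaving 10 residual degrees of freedom. Benjamini-Hochberg adjustment covered all genes, and calls were made at an adjusted p under 0.05. The probe set fit was adjusted over 34946 probe sets. An exact two-sided permutation test of 3 arrays against 3 cannot go below 0.1. The procedure was tested on simulated data with independent noise on each array and shifts added to the HF group. These held no shift in RNA quality, so the simulation cannot show how that measure affects the calls.

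The members and lists were chosen with earlier results of these data known. Named genes are the catalytic subunits, Psme1 and Psme2, called members of each class (up to 4 a comparison), the largest change of a class without a call, and up to 3 called genes of each related list, of which the text gives fewer. Alternatives were averaged probe sets, every probe set, only genes of at least median level, cyclic loess, an offset of 32, the compared groups alone, a replicate block, limma's trend with robust eBayes, the 3' minus 5' covariate, and each array left out. Promoters were searched with Python 3.11.15.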

Additional observations from a re-analysis of the deposited data

Results flagged for a closer look

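Probe sets outside the gene fit passed the test in 7 cases in which the probe set that stood for the gene did not, in a fit of all probe sets for themselves. Psme4, a large activator of the core known for its role in the testis, gave 3 of these. One of its 6 probe sets had 8.38, 7.63 and 8.08 on the HF arrays, against 8.72, 8.71 and 8.46 on the ND arrays. The groups did not overlap there, and HF replicate 2 was lowest. A brighter one had 10.03, 9.90 and 9.99 on the HF arrays, against 10.21, 10.01 and 10.06 on the ND arrays, with overlap and no call. For the first of these the difference was -0.60 (adjusted p = 0.017), and the coffee groups lay 0.47 above HF (adjusted p = 0.026). The gene's brightest probe set differed by 0.00 in HF against ND. Another, dim probe set of Psme4 lay 0.40 higher in the coffee groups than in ND (adjusted p = 0.039).

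A second probe set of the ATPase gene Psmc6 was lower in HF than in ND (difference -0.42, adjusted p = 0.014), in the direction of the brightest one, which missed the threshold. One of Psmd6, a lid subunit, was lower as well (difference -0.27, adjusted p = 0.028), with 11.03, 10.86 and 10.98 on the HF arrays, against 11.24, 11.12 and 11.32 on the ND arrays. For Psmd11, 1 probe set was lower in the coffee groups than in HF (difference -0.29, adjusted p = 0.046) and the dimmest was lower in the coffee groups than in ND (difference -0.36, adjusted p = 0.044). Groups of 3 arrays are too small for a search for single outlying arrays.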

How the results depend on the processing

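The counts of called members depended on the HF arrays, in HF against ND also on the ND arrays, and on how RNA quality was treated. For HF against ND the count was 9, and it was 15 with an offset of 32 or with every probe set for itself, 1 with the compared groups alone and 0 with the 3' minus 5' covariate. For HFCC against HF (1) it was 3 with only genes of at least median level or with the offset, and 0 with averaged probe sets, cyclic loess, the compared groups alone, the replicate block, trend with robust eBayes, the covariate or every probe set. For HFDC against HF (2) it was 7 with genes of at least median level, 5 with the offset, and 0 with the compared groups alone or the covariate. For HFGC against HF (0) it was 2 with genes of at least median level, 3 with the offset, and 1 with cyclic loess or with trend and robust eBayes. For the mean of the coffee groups against HF (8) it was 4 with averaged probe sets and 0 with the covariate. For the mean of the coffee groups against ND (1), a comparison added after the data were seen, it was 0 with averaged probe sets, 3 with genes of at least median level or every probe set, and 2 with the covariate. The coffee pairs gave 0 under each of these settings.

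Leaving out 1 array gave counts from 1 to 10 for HF against ND, 0 to 7 for HFCC, 0 to 8 for HFDC and 0 to 7 for HFGC against HF, 0 to 10 for the coffee mean against HF, 0 to 3 for the coffee mean against ND, and 0 to 0 for each coffee pair. Lowest counts against HF came without HF replicate 2, among others, and the highest without HF replicate 1.

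Replicate numbers showed no clear pairing of the arrays. With group means taken out, correlations of same-numbered arrays ranged from -0.28 to 0.23 (median 0.06). Those of other-numbered arrays of different groups ranged from -0.22 to 0.31 (median -0.03). With the replicate number as a block the counts were 8, 0, 2, 0, 8 and 1 in the order above. In HF against ND, 0 of the 9 called differences of members changed sign under the settings tried. Of the 40 uncalled ones 19 did so under 1 setting or more, among them Psmb5 (0.02, with a lowest value of -0.01), Psmf1 and Psmg2. Over all comparisons it was 0 of 21 called and 212 of 420 uncalled differences. Calls are made on differences that are large for their standard error, so a stable sign is partly built in. The unchanged count of 2 for HFDC under cyclic loess is made of other genes, Psma1 and Psma4 higher in place of Psmd3 and Psmg3 lower.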

Other observations

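Psmg2, a factor that pairs with Psmg1 in building the alpha ring, had the widest spread between arrays of a group after the dim Psma8 (SD within groups 0.23). It had 8.55, 8.53 and 8.82 on the HFGC arrays, against 8.49, 7.90 and 8.20 on the HF arrays and 8.72, 8.66 and 8.12 on the ND arrays. HF replicate 2 was the lowest array and ND replicate 3 also lay low, so the HF and ND groups overlapped. The mean of the coffee groups lay 0.36 above HF (standard error 0.13, adjusted p = 0.098), which did not pass the test, and 0.51 above it without HF replicate 1 (adjusted p = 0.030). Without ND replicate 3 the adjusted p was 0.048 at the same difference. With the 3' minus 5' covariate the difference was -0.16.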
